A study of Sus scrofa with 36 samples.

Results

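Sham-operated pig hearts aged 21 days were compared with sham-operated hearts aged 9 days. All 6 animals were Yorkshire-landrace pigs with no other genotype given, and each group had 3 pigs with 1 RNA library per pig. The younger group had sham surgery on day 2 of age and the older group on day 14, and the anterior left ventricular wall was taken 1 week later. These are the Young Late Sham and Old Late Sham groups of the labels, called 9-day and 21-day hearts here. Per the labels' protocols, every animal of the study received the analgesic ketoprofen and the antibiotic enrofloxacin after surgery. Those protocols describe anaesthesia, ventilation and a left-sided opening of the chest, and what the sham procedure left out is not spelled out. No unoperated heart is among the samples, so each value belongs to an operated heart. The 6 libraries were chosen by their group label from 36 in the series, and every gene that passed a filter on low counts was kept, which left 14537 of 25880 genes.

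In the first weeks after birth the mammalian heart stops growing by cell division and grows by enlarging its muscle cells. Contractile protein isoforms of the fetus are replaced by adult ones, the membrane systems that release calcium at each beat mature, and fuel use moves from glucose and lactate towards fatty acids. Thyroid hormone, glucocorticoids and the PGC-1, ERR and PPAR regulators of mitochondrial genes are known to drive parts of this programme. The piglet heart is studied because its ability to regenerate muscle is lost within days of birth.

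The libraries differed in more than age. The 9-day libraries held 26017196, 8113200 and 19083128 counts and the 21-day libraries 23878767, 19745403 and 20580083. RNA integrity number, a score of RNA intactness with a maximum at wholly intact RNA, was 7.13 ± 0.503 (SD, n = 3) at 9 days and 8.07 ± 0.306 at 21 days, with no overlap. Libraries of 9-day replicates 1 and 3 were prepared in batch 2 and that of replicate 2 in batch 1, while all 21-day libraries were prepared in batch 3, which holds no young animal. Age and batch therefore cannot be told apart in the main comparison. Genes on the Y chromosome were expressed in all 3 of the 9-day libraries but in 1 of 3 21-day libraries, replicate 2. The 9-day replicate 2 had the lowest depth of the 12 sham libraries and stood apart from them on the second principal component, at -97.3, where the other 11 ran from -27.9 to 21.4. The first component, with 40.5% of the variance, ran from -30.4 to 0.625 in 9-day hearts and from 44.3 to 62.7 in 21-day hearts. Ventricular muscle markers were high in all 6 libraries, with TNNT2 between 6566 and 13520 and MYL2 between 8084 and 16090 CPM (counts scaled by library size with TMM factors). Among atrial markers found by symbol, SLN did not exceed 0.137 CPM and NR2F1 ran from 0.533 to 2.2 CPM. MYL4, which fetal ventricle also carries, ran from 24.7 to 407 CPM.

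At 21 days 973 genes were higher and 545 lower than at 9 days. These 1518 genes were 10.4% of the 14537 tested (6.69% higher, 3.75% lower), with edgeR's quasi-likelihood test at a Benjamini-Hochberg adjusted p under 0.05. The 3 and 3 libraries did not overlap for 39.6% of all genes tested and for 1470 of the 1518. By direction, every 21-day library lay above every 9-day library in 3363 of the 14537 genes and below in 2392. The median log2 fold change over all genes was 0.04, and 50% of genes lay between -0.39 and 0.51. In the text below, rose and fell are written of genes past this threshold. Counts of list members that rose or fell are to be set against the 6.69% and 3.75% over all genes tested. Each log2 fold change is given ± a standard error derived from the F statistic of the test. That statistic takes its spread from the fit of all 36 libraries, not from the 3 and 3 libraries alone. In bulk tissue, fewer cells of a type and less RNA per cell cannot be told apart.

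**Figure D1:**
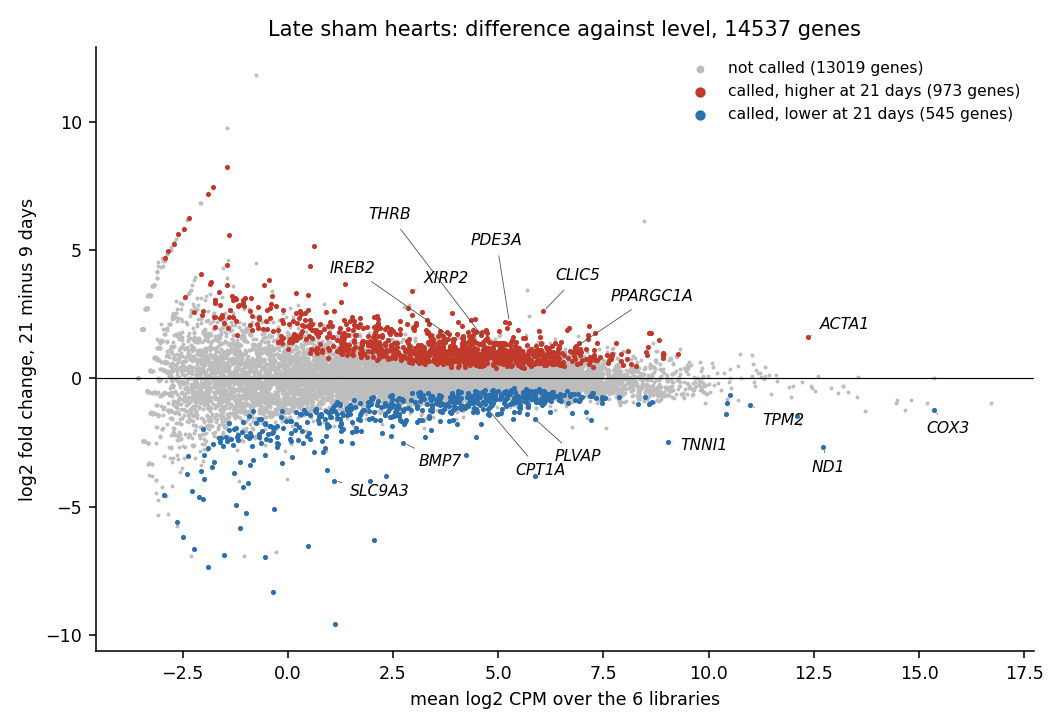
Each point is 1 of 14537 genes, with the mean log2 CPM over the 6 libraries on the x axis and the log2 fold change, 21 minus 9 days, on the y axis. Red points are the 973 genes that rose and blue points the 545 that fell. ACTA1, TNNI1, TPM2, ND1 and COX3 are among the called genes at the highest levels.

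Single libraries and RNA integrity moved this count. Without 9-day replicate 1, 2 or 3 the count was 668, 702 or 1464, and without 21-day replicate 1, 2 or 3 it was 562, 355 or 1197. Of the 1518 genes, 230 kept their call in all 6 of these fits, 174 that rose and 56 that fell. With RNA integrity number as a covariate over the 36 libraries, 108 genes were called (67 higher, 41 lower), 98 of them among the 1518, and 1983 had an unadjusted p under 0.05. All 1518 genes kept their sign in that fit. Of the 121 called genes named in the text, 21 kept their call with the covariate. For most of the others its adjusted p, or a range that holds it, is given where they are described. The share of higher genes among those called was 64.1%, but 49.6% in a fit of the 12 sham libraries alone, 51.7% in a fit of the 6 libraries alone and 51.9% with mitochondrially encoded genes left out. It was 74.4% without 21-day replicate 1. A direction for genes as a whole is therefore not given here.

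**Figure D2:**
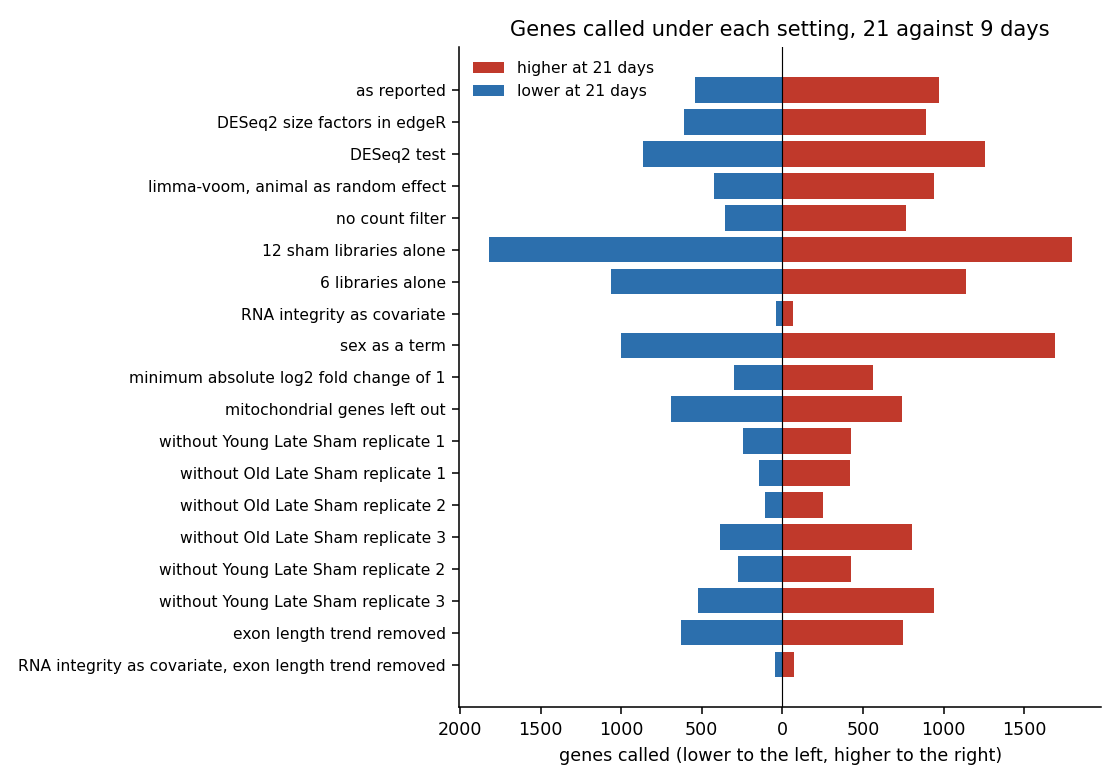
Bars give the number of genes called higher at 21 days (right) and lower (left) under each setting, with the setting on the y axis. The reported 973 and 545 genes are the top bar. With RNA integrity as a covariate the bars shrink to 67 and 41, and in a fit of the 12 sham libraries alone they grow to 1796 and 1823.

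Genes that rose were longer than genes that fell. The summed exon length had a median of 5300 bases in the 973 genes that rose, 3121 bases in the 545 that fell and 3885 bases in all genes tested. With genes in 4 bins of exon length, in the shortest bin (35 to 2213 bases, 3630 genes) 2.64% rose and 5.62% fell, and in the longest (5879 to 25110 bases, 3635 genes) 10.7% rose and 2.92% fell. The median log2 fold change went from -0.18 in the shortest bin to 0.21 in the longest, and from -0.07 to 0.09 with RNA integrity as a covariate. RNA integrity did not overlap between the groups, and its part in the length pattern was not tested beyond that fit. With a trend of log2 CPM on exon length removed from each library, 1376 genes were called (749 higher, 627 lower), 1184 of them among the 1518.

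**Figure D3:**
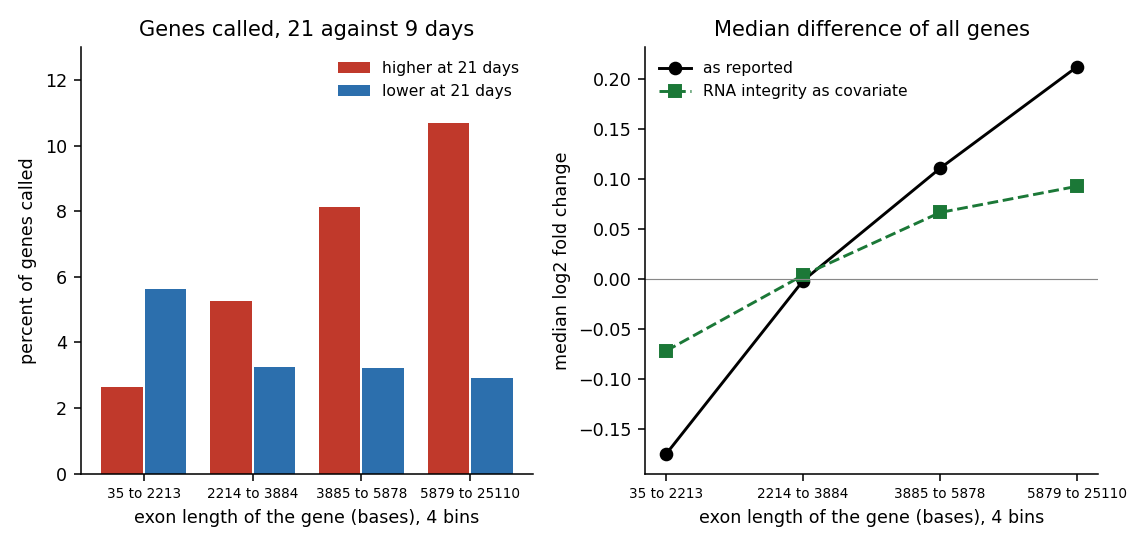
Left, the percent of genes called higher (red) and lower (blue) at 21 days in 4 bins of exon length (x axis, bases). Right, the median log2 fold change of all genes of each bin as reported (black) and with RNA integrity as a covariate (green). The share that rose goes from 2.64% to 10.7% from the shortest to the longest bin.

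Among fetal contractile isoforms, 2 fell at 21 days and 1 rose. TNNI1, the slow skeletal troponin I that the fetal heart uses, read 1797, 1013 and 1035 CPM at 9 days and 152.5, 259 and 283 CPM at 21 days. It fell by 2.47 ± 0.58 on the log2 scale (adjusted p = 0.0109, edgeR quasi-likelihood test), and the groups did not overlap. TPM2, beta-tropomyosin, read 3007, 2616 and 3629 CPM and then 1001, 992.5 and 2476 CPM, and fell by 1.05 ± 0.31 (adjusted p = 0.0292), with 21-day replicate 3 close to the 9-day range. Skeletal alpha-actin ACTA1, the actin co-expressed with cardiac actin in the young heart, went the other way. Its levels were 3475, 2347 and 3245 CPM at 9 days and 8008, 8612 and 11490 CPM at 21 days, a rise of 1.63 ± 0.35 (adjusted p = 0.00587) with every 21-day library above every 9-day library. Of the 11 fetal isoform genes tested, 1 rose and 2 fell, and their median was -0.78 against 0.04 for all genes. MYL4, the atrial and fetal light chain, read 407, 231 and 108 CPM and then 24.7, 120 and 54.2 CPM, so that the groups overlapped (log2 fold change -1.91 ± 0.72, adjusted p = 0.0824).

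Of the adult sarcomere genes found by symbol, few were called. XIRP2, an actin-binding repeat protein of the intercalated disc and Z-disc, read 3.75, 1.07 and 2.33 CPM at 9 days and 26.1, 31.2 and 24.3 CPM at 21 days (log2 fold change 3.42 ± 0.88, adjusted p = 0.0155). MYOM3, an M-band protein, read 132, 33.2 and 81.9 CPM and then 233, 136 and 271 CPM and rose by 1.37 ± 0.34 (adjusted p = 0.013). The highest 9-day value of MYOM3, 132, lay just under the lowest 21-day value, 136. These were the 2 of 22 adult sarcomere genes tested that rose, against 6.69% of all genes tested. None fell, and the median of the list was 0.09. The list was fixed at 29 genes, of which 22 were found by symbol. TNNI3, the adult troponin I, and TTN, titin, were not found by symbol, so their levels were not read. MYL2, the ventricular regulatory light chain, was level at 0.07 ± 0.45 and the M-band gene MYOM2 stood at 0.90 ± 0.61 (adjusted p = 0.325). Cardiac actin ACTC1 stood at -0.70 ± 0.46 (adjusted p = 0.307), with 9-day values spread from 9213 to 22800 CPM. MYH6, alpha-myosin heavy chain, stood at 0.04 ± 0.23. No gene was matched to the symbol of its near-identical neighbour MYH7, which may be counted under an ID alone. How reads of that pair were divided is therefore uncertain.

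Among fast skeletal muscle genes, 2 fell. Calsarcin-2, MYOZ1, a Z-disc protein of fast skeletal fibres, read 5.05, 9.46 and 3.64 CPM at 9 days and 1.86, 1.48 and 0.892 CPM at 21 days and fell by 2.07 ± 0.41 (adjusted p = 0.00353). The fast troponin C gene TNNC2 lay under 1 CPM in all 6 libraries and fell by 2.54 ± 0.61 (adjusted p = 0.0116). It was the only called member of a list of 10 skeletal muscle genes, which holds neither MYOZ1 nor ACTA1; all 10 had a negative fold change, with a median of -0.68. Embryonic myosin MYH3 read 19.1, 16.8 and 15.9 CPM and then 3.77, 3.83 and 8.69 CPM without passing the threshold (-1.67 ± 0.56, adjusted p = 0.0509). Of the called muscle genes named so far, ACTA1 and MYOZ1 kept their call without each of the 6 libraries and with RNA integrity as a covariate (adjusted p = 0.037 and 0.0214). TNNI1 lost it without 21-day replicate 1 (adjusted p = 0.0564), MYOM3 without 9-day replicate 2 (0.0635), XIRP2 and TNNC2 without either of 2 libraries each (0.0533 to 0.0641), and TPM2 without any of 4 libraries (0.0673 to 0.16). These 5 genes were not called with the covariate either (0.0721 to 0.316).

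Cardiac stress genes did not move together. Besides ACTA1 and XIRP2, which stand in this list too, TRIB3 was called: this pseudokinase of the integrated stress response read 7.44, 3.07 and 3.77 CPM at 9 days and 0.445, 0.0983 and 1.46 CPM at 21 days (-2.85 ± 0.70, adjusted p = 0.0123). Natriuretic peptide NPPB ranged from 65.55 to 381 CPM at 9 days and from 43.8 to 344.5 CPM at 21 days, so the groups overlapped. The TRIB3 call was lost without 9-day replicate 1 or without 21-day replicate 1 or 2 (adjusted p = 0.0623 to 0.0741), and with RNA integrity as a covariate (0.134).

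**Figure D4:**
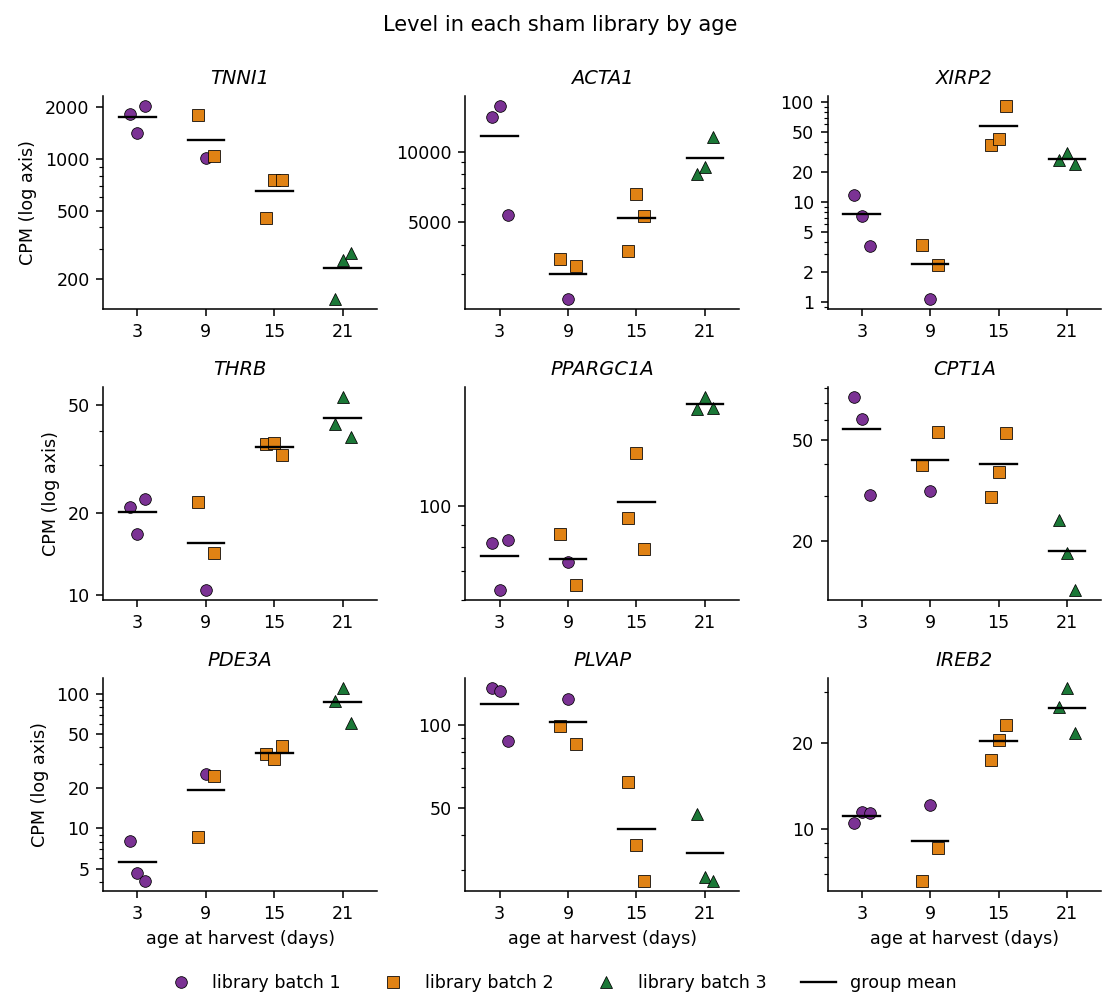
CPM on a log axis of 9 genes in the 12 sham libraries against age at harvest in days; symbols give the library batch and bars the mean of the 3 libraries. TNNI1, CPT1A and PLVAP have their lowest group mean at 21 days, and ACTA1, THRB, PPARGC1A, PDE3A and IREB2 stand above their 9-day levels. Batch 3 holds the 21-day libraries alone.

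Nuclear receptors for thyroid and adrenal hormones were higher at 21 days. THRB, thyroid hormone receptor beta, read 22.0, 10.4 and 14.2 CPM at 9 days and 42.4, 53.5 and 38.1 CPM at 21 days (log2 fold change 1.51 ± 0.26, adjusted p = 0.00165). NR3C1, the glucocorticoid receptor, read 17.2, 20.0 and 27.5 CPM and then 47.2, 47.3 and 39.1 CPM and rose by 1.05 ± 0.25 (adjusted p = 0.0109). NR3C2, the mineralocorticoid receptor, read 5.55, 10.3 and 11.7 CPM and then 27.2, 27.3 and 23.5 CPM and rose by 1.51 ± 0.37 (adjusted p = 0.0126). None of these 3 receptors overlapped between the groups. The thyroid hormone transporter SLC16A10 (MCT10) rose by 1.17 ± 0.29 (adjusted p = 0.0126). KLF9, a transcription factor induced by both hormones, rose from 38.9, 56.8 and 48.2 to 118, 104 and 98.3 CPM (1.16 ± 0.33, adjusted p = 0.028). In all, 6 of 19 thyroid hormone and glucocorticoid genes rose, against 6.69% of all genes tested. None of the 19 fell, and the median was 0.29. THRB kept its call without each library and with RNA integrity as a covariate (adjusted p = 0.0273); with that covariate NR3C1, NR3C2, KLF9 and SLC16A10 had adjusted p values between 0.111 and 0.264. NR3C1 lost its call without 9-day replicate 1 (0.0558), SLC16A10 without 9-day replicate 2 (0.0664), NR3C2 without 9-day replicate 1 or 21-day replicate 2 (0.0759 and 0.05003), and KLF9 without 4 of the 6 libraries (up to 0.113).

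Of 18 circadian clock genes 3 rose and none fell, and their median was 0.40. The share that rose over all genes tested was 6.69%. HLF, a clock-output transcription factor, read 15.8, 12.8 and 14.0 CPM at 9 days and 30.5, 37.5 and 30.6 CPM at 21 days (1.21 ± 0.24, adjusted p = 0.00432). NR1D2, the REV-ERB beta repressor, read 11.4, 41.2 and 23.6 CPM and then 74.7, 75.9 and 63.3 CPM (1.5 ± 0.33, adjusted p = 0.00694), with 9-day replicate 2 the highest of its group. NFIL3, a repressor of the same promoter elements as HLF, rose by 0.94 ± 0.29 (adjusted p = 0.0363). The labels used here give no time of day for tissue collection, so its part in these values was not tested. HLF and NR1D2 kept their calls without each library, and NFIL3 lost its call without 4 of 6 (adjusted p = 0.0509 to 0.211); with RNA integrity as a covariate the adjusted p values were 0.0658, 0.112 and 0.124.

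Of 15 regulators of mitochondrial and fatty acid genes 5 rose at 21 days, against 6.69% of all genes tested. PPARGC1A, the coactivator PGC-1 alpha, read 86.0, 73.6 and 64.9 CPM at 9 days and 170, 182 and 171 CPM at 21 days (1.22 ± 0.29, adjusted p = 0.0109). Its partner ESRRG, an estrogen-related receptor, read 7.54, 10.4 and 16.3 CPM and then 38.5, 37.0 and 31.8 CPM (1.65 ± 0.43, adjusted p = 0.0171). PPARA, the fatty acid receptor of heart and liver, read 3.60, 8.13 and 3.71 CPM and then 20.9, 26.4 and 18.4 CPM (2.12 ± 0.59, adjusted p = 0.0231). All 21-day libraries stood above all 9-day libraries for the 3 genes. GABPA, also called NRF-2 alpha, rose by 1.13 ± 0.37 (adjusted p = 0.0489), and TFAM, which packages and transcribes mitochondrial DNA, by 0.79 ± 0.24 (adjusted p = 0.0352). None of the 15 fell, 11 had a positive fold change, and the median was 0.28, or 0.12 with RNA integrity as a covariate. PPARGC1A kept its call without each library; the other 4 lost theirs without 4 or 5 of the 6 libraries, TFAM and GABPA with adjusted p values up to 0.174 and 0.204. With RNA integrity as a covariate the 5 adjusted p values ran from 0.146 to 0.493.

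The enzymes below these regulators did not follow as a group. Of 28 genes of fatty acid uptake and oxidation 1 rose and 2 fell, with a median of -0.12. LPL, the lipase that frees fatty acids from lipoproteins, read 289, 408 and 364 CPM at 9 days and 662, 684 and 652 CPM at 21 days (0.91 ± 0.27, adjusted p = 0.0323). CPT1A, the liver form of the mitochondrial fatty acid gate that the newborn heart also carries, read 39.7, 31.5 and 53.6 CPM and then 24.1, 17.9 and 12.8 CPM and fell by 1.19 ± 0.28 (adjusted p = 0.0109). The muscle form CPT1B did not pass the threshold, at -0.19 ± 0.29 (adjusted p = 0.688). UCP3, an inner membrane carrier tied to fatty acid use, read 2.00, 3.47 and 4.39 CPM and then 0.81, 0.147 and 0 CPM (-3.28 ± 0.82, adjusted p = 0.014). Lipid droplet genes held 2 of 14 members that fell: PLIN5, the droplet coat protein of oxidative tissue (-1.40 ± 0.44, adjusted p = 0.0382), and LIPE, hormone-sensitive lipase (-1.63 ± 0.45, adjusted p = 0.0211). Among the 6 libraries, CPT1A and UCP3 lost their calls without 21-day replicate 2 alone (adjusted p = 0.0518 and 0.078), LIPE lost its call without 3 libraries, and LPL and PLIN5 lost theirs whichever of the 6 was left out. None of the 5 was called with RNA integrity as a covariate (0.0754 for CPT1A, 0.144 to 0.278 for the others).

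Among genes of the mitochondrial matrix, OXCT1, which activates ketone bodies for oxidation, read 390, 264 and 371 CPM at 9 days and 678, 686 and 678 CPM at 21 days (0.99 ± 0.26, adjusted p = 0.0172). SUCLA2, a subunit of succinyl-CoA synthetase, rose by 0.80 ± 0.23 (adjusted p = 0.0302). They were the only called members among 18 ketone and branched-chain amino acid genes (median 0.26) and 20 citric acid cycle genes (median 0.10). Glycolytic genes had 2 of 23 members that fell and a median of -0.37: PKM, pyruvate kinase (-0.63 ± 0.20, adjusted p = 0.0427), and PFKFB4, which sets the fructose bisphosphate signal (-0.80 ± 0.25, adjusted p = 0.0381). The insulin-responsive glucose transporter SLC2A4 stood at 0.01 ± 0.30, lactate dehydrogenase LDHA at 0.01 ± 0.46, hexokinase HK2 at -0.11 ± 0.62 and mitochondrial creatine kinase CKMT2 at 0.03 ± 0.28. None of the 12 creatine kinase and phosphotransfer genes was called. OXCT1 lost its call without 9-day replicate 2 or 21-day replicate 2 (adjusted p = 0.0835 and 0.0623), SUCLA2 and PFKFB4 without 5 of 6 libraries and PKM whichever of the 6 was left out (0.0503 to 0.176). Their adjusted p values with RNA integrity as a covariate were 0.162 to 0.342.

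Transcripts of the respiratory chain were lower at 21 days where they were called. The share of counts from mitochondrially encoded genes was 36.6%, 35.1% and 42.6% at 9 days and 23.4%, 24.0% and 22.8% at 21 days. The means, 38.1% ± 3.94 and 23.4% ± 0.6 (SD, n = 3), differed with an exact two-sided permutation p of 0.1, the smallest that 3 against 3 libraries allow. Of 13 mitochondrially encoded genes 3 fell and 12 had every 21-day library below every 9-day library, as had 2392 of the 14537 genes tested. In 1 gene every 21-day library lay above every 9-day library. The list median was -0.97. ND1, a subunit of complex I, read 16470, 13170 and 22300 CPM and then 2619, 2734 and 2802 CPM (-2.67 ± 0.79, adjusted p = 0.031). ND3 fell by 1.46 ± 0.36 (adjusted p = 0.014) and COX3, a subunit of complex IV, by 1.23 ± 0.37 (adjusted p = 0.0358). Of 34 respiratory chain genes of the nucleus 1 fell and none rose, with a median of -0.30: COX8A, a small subunit of complex IV, read 235, 227 and 181 CPM and then 90.9, 82.1 and 86.8 CPM (-1.31 ± 0.31, adjusted p = 0.0104). These lists are short in exon length, with medians of 784 and 2311.5 bases against 3885 over all genes. With RNA integrity as a covariate the 2 medians were -0.57 and 0.04, and the 4 genes had adjusted p values from 0.144 to 0.538. COX8A lost its call without 21-day replicate 2 (adjusted p = 0.0532), ND3 without 21-day replicate 1 or 2, COX3 without 5 libraries and ND1 whichever of the 6 was left out (0.051 to 0.12). How reads from nuclear copies of mitochondrial genes were counted is uncertain.

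Of 22 genes of phosphodiesterases, adenylyl cyclases and adrenergic receptors 7 rose at 21 days and none fell. The share that rose over all genes tested was 6.69%. The cyclic AMP signal of the heart, raised by adrenergic receptors and adenylyl cyclases and cut by phosphodiesterases, sets the force and rate of the beat. In 14 of 22 every 21-day library stood above every 9-day library, against 3363 of 14537 over all genes tested. The list median was 0.69. PDE3A, the phosphodiesterase that the inotrope milrinone blocks, read 8.69, 25.2 and 24.4 CPM at 9 days and 88.6, 111 and 60.9 CPM at 21 days (2.17 ± 0.45, adjusted p = 0.00533). PDE4D, which is bound to the calcium release channel, read 40.1, 52.9 and 73.2 CPM and then 143, 184 and 124 CPM (1.44 ± 0.41, adjusted p = 0.0258). PDE4B rose by 1.25 ± 0.30 (adjusted p = 0.0109), PDE4A by 0.76 ± 0.20 (adjusted p = 0.0154) and the calcium-stimulated PDE1C by 1.30 ± 0.33 (adjusted p = 0.0149).

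Among receptors and cyclases, ADRA1B, an alpha-1 adrenoceptor that signals through calcium rather than cyclic AMP, read 9.29, 5.47 and 4.33 CPM at 9 days and 19.2, 16.1 and 15.2 CPM at 21 days (1.39 ± 0.41, adjusted p = 0.0314). The adenylyl cyclase ADCY9 rose by 0.56 ± 0.16 (adjusted p = 0.0245). The beta-1 adrenoceptor ADRB1 read 12.6, 14.9 and 12.4 CPM and then 32.2, 22.0 and 25.2 CPM without passing the threshold (0.99 ± 0.50, adjusted p = 0.187). In this list PDE3A kept its call without each library, and the other 6 called genes lost theirs without 2 to 4 libraries, ADCY9, PDE4D and ADRA1B without 4 each (PDE4D at up to 0.113). With RNA integrity as a covariate the list median was 0.45 and no member was called; PDE1C had the lowest adjusted p of the 7, 0.0551. The list median is 0.63 when ADRA2A, with 0 counts at 9 days and 4 at 21 days, is left out.

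Calcium handling genes had a median of 0.47, with 2 of 17 that rose, none that fell and 10 with no overlap in the same direction. Over all genes tested, 3363 of 14537 had no overlap in that direction. CACNA2D1, a subunit of the L-type calcium channel, read 39.7, 52.4 and 63.2 CPM at 9 days and 102, 110 and 82.9 CPM at 21 days (0.92 ± 0.28, adjusted p = 0.036). ASPH, whose products include junctin of the calcium release site, read 21.6, 21.9 and 21.3 CPM and then 38.1, 39.5 and 38.5 CPM (0.84 ± 0.21, adjusted p = 0.0146). The release channel RYR2 read 259, 497 and 550 CPM and then 1018, 1036 and 881 CPM and did not pass (1.17 ± 0.59, adjusted p = 0.19). The pump ATP2A2 read 1671, 2723 and 2339 CPM and then 3460, 2810 and 3040 CPM (0.47 ± 0.47, adjusted p = 0.525). Neither RYR2 nor ATP2A2 overlapped between groups, yet with RNA integrity as a covariate they stood at 0.15 and -0.14. JPH1, a junctophilin that ties the cell membrane to the calcium store, stood at 1.12 ± 0.41 (adjusted p = 0.0727). Of 22 ion channel genes 1 rose: KCNJ3, a subunit of the acetylcholine-gated potassium channel, from 32.5, 22.1 and 25.1 to 56.7, 64.6 and 57.0 CPM (1.16 ± 0.28, adjusted p = 0.0116). ASPH lost its call without 21-day replicate 2 (adjusted p = 0.0577), KCNJ3 without that library or 9-day replicate 2 (0.0532 and 0.052), and CACNA2D1 without 4 of 6 (0.0856 to 0.154); the 3 stood at 0.216 to 0.514 with RNA integrity as a covariate.

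Of 21 cardiac transcription factors 2 rose and none fell, with a median of 0.12. PROX1, a homeodomain factor of both heart muscle and lymphatic vessels, read 3.60, 2.53 and 4.05 CPM at 9 days and 16.9, 16.1 and 11.7 CPM at 21 days (2.12 ± 0.51, adjusted p = 0.0113). MEF2C, a regulator of contractile genes, rose by 0.66 ± 0.17 (adjusted p = 0.0152). Among splicing regulators of muscle 1 of 16 rose, MBNL2, a partner of MBNL1 in the switch from fetal to adult splice forms, from 7.29, 8.13 and 10.2 to 17.9, 19.1 and 16.3 CPM (1.06 ± 0.19, adjusted p = 0.00266). PROX1 and MBNL2 kept their calls without each library, and MBNL2 also with RNA integrity as a covariate (adjusted p = 0.0457). PROX1 had an adjusted p of 0.348 in that fit. MEF2C lost its call without 21-day replicate 2 or 9-day replicate 2 (0.0859 and 0.0909) and with the covariate (0.164).

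Cell cycle genes gave no common direction. Of 43 tested 1 rose and 3 fell, and the median of -0.25 lay between -0.80 and 0.49 when 1 library was left out. PLK1, a mitotic kinase, read 26.3, 9.998 and 8.51 CPM at 9 days and 5.99, 9.04 and 4.37 CPM at 21 days (-1.22 ± 0.40, adjusted p = 0.0499). AURKB, the kinase of the chromosomal passenger complex, fell by 1.26 ± 0.40 (adjusted p = 0.0402), and CDT1, which licenses replication origins, by 1.67 ± 0.55 (adjusted p = 0.0486). In all 3 the highest value was that of 9-day replicate 1, without which their adjusted p values were 0.473, 0.355 and 0.517; each also lost its call without 3 or 4 of the other 5 libraries. ANLN, the cleavage furrow protein anillin, read 14.6, 10.3 and 5.97 CPM and then 20.9, 47.9 and 13.7 CPM (1.41 ± 0.46, adjusted p = 0.0487) and lost its call without 5 of 6 libraries (0.357 without 21-day replicate 2). TOP2A and CDK1, both markers of dividing cells, stood at 0.68 ± 0.38 and -0.13 ± 0.47; in both, 21-day replicate 2 was the highest library of its group, at 55.0 and 20.6 CPM. CCND2 stood at -0.31 ± 0.26. The 4 called genes had adjusted p values of 0.245 to 0.519 with RNA integrity as a covariate.

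Of 16 genes of cell cycle exit 1 rose and 1 fell, and SUV39H1, named by its size of change, fell. SUV39H1, a histone H3 methyltransferase of silent chromatin, read 15.4, 22.4 and 9.20 CPM at 9 days and 3.81, 5.75 and 4.93 CPM at 21 days (-1.69 ± 0.36, adjusted p = 0.0059). TP53INP1, a stress-induced target of p53, read 43.3, 52.1 and 32.5 CPM and then 72.0, 95.1 and 92.9 CPM (1.03 ± 0.23, adjusted p = 0.00841). Both kept their calls without each library, and their adjusted p values with RNA integrity as a covariate were 0.0502 and 0.0925. GADD45B, a growth arrest gene, fell by 0.86 ± 0.27 (adjusted p = 0.0384) and lost its call without 4 of 6 libraries (up to 0.173) and with the covariate (0.419). None of 16 fetal growth genes was called, and the fetal RNA-binding protein IGF2BP3 stood at -0.22 ± 0.24 (adjusted p = 0.575).

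Cytosolic ribosomal protein genes were lower at 21 days as a list, although 1 member alone was called. All 36 tested had a negative fold change, and in 32 every 21-day library lay under every 9-day library. The latter held for 2392 of the 14537 genes tested. The median was -0.52, against 0.04 for all genes. Their summed level was 23160 to 25570 CPM at 9 days and 16900 to 16940 CPM at 21 days. The called member was RPL3, a large subunit protein, with 631, 526 and 489 CPM and then 236, 327 and 256 CPM (-1.01 ± 0.30, adjusted p = 0.0318). The list has a median exon length of 1851.5 bases; its median was -0.44 with the length trend removed and -0.29 with RNA integrity as a covariate. RPL3 lost its call without 5 of 6 libraries (adjusted p = 0.0639 to 0.123). Ribosomal protein genes have many near-identical copies, so their single values are uncertain. Of 33 mitochondrial ribosomal protein genes, MRPS35 (0.67 ± 0.19, adjusted p = 0.0243) and MRPL47 (0.67 ± 0.20, adjusted p = 0.0352) rose and MRPL17 (-0.75 ± 0.24, adjusted p = 0.0461) fell. Of 27 proteasome subunits PSMB2 (-0.54 ± 0.17, adjusted p = 0.039) and PSMD3 (-0.59 ± 0.19, adjusted p = 0.0399) fell. These 5 genes lost their calls without 4 to 6 of the 6 libraries, and with RNA integrity as a covariate RPL3 and the 5 stood at 0.124 to 0.477.

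**Figure D5:**
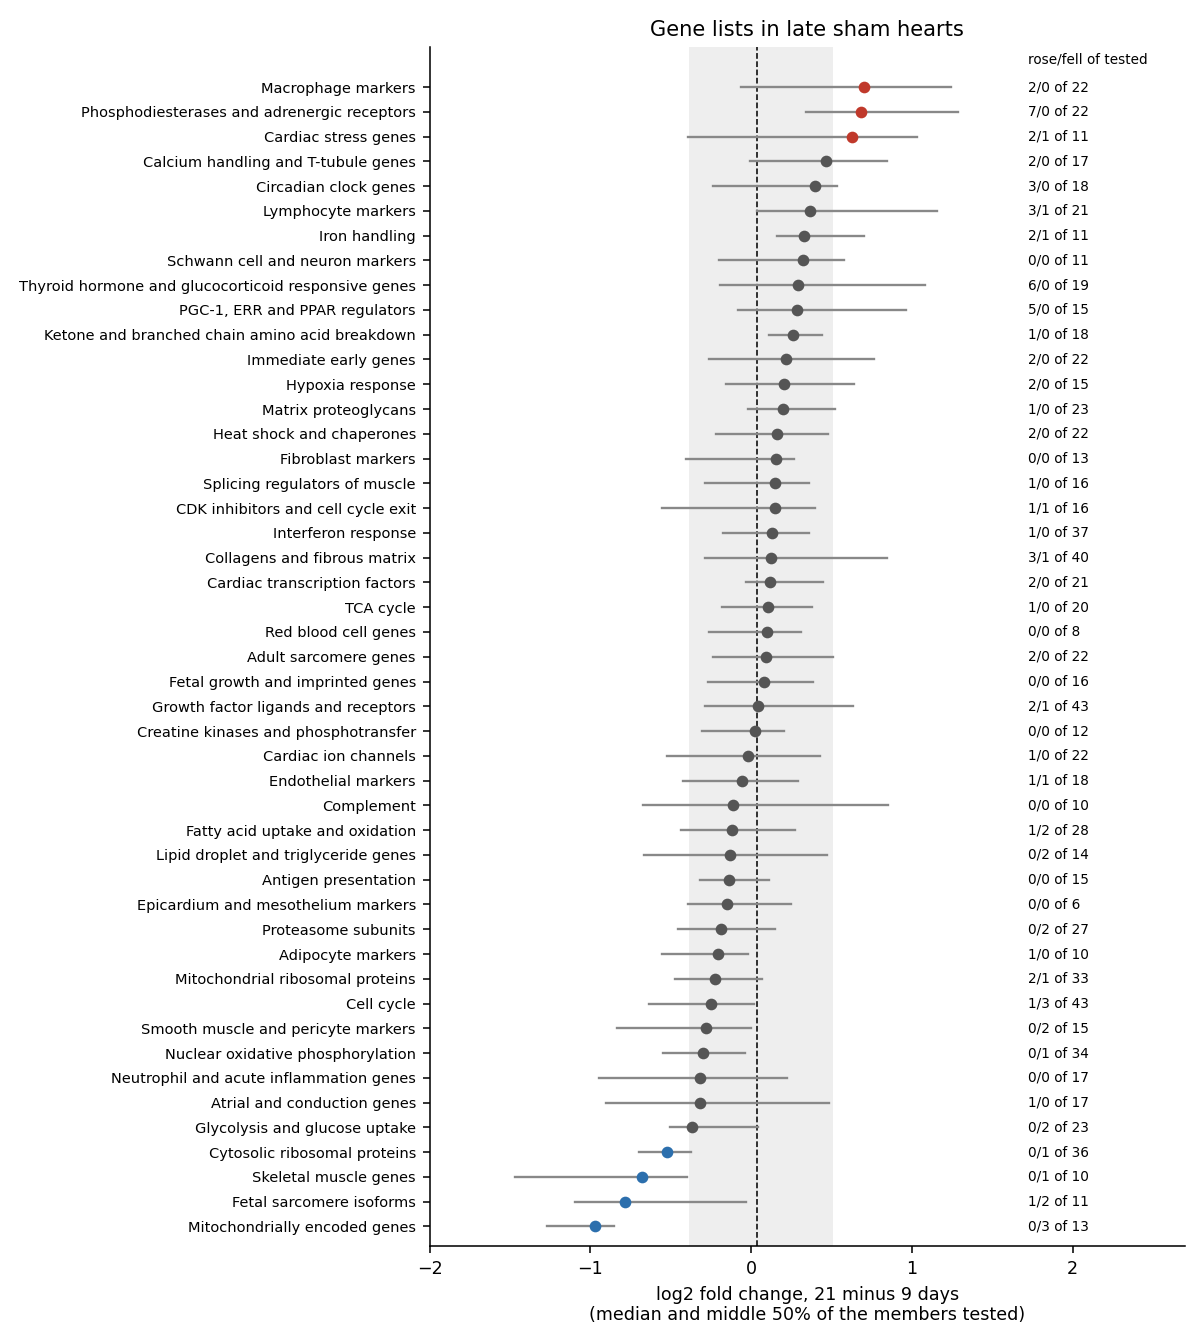
Points give the median log2 fold change, 21 minus 9 days, of the tested members of each of 47 gene lists, and lines the middle 50% of members; the shaded band and dashed line give the same for all genes tested. Numbers at the right give members that rose and fell of those tested. The cytosolic ribosomal (-0.52), mitochondrially encoded (-0.97), skeletal muscle (-0.68) and fetal sarcomere (-0.78) medians lie left of the band, and the macrophage, phosphodiesterase and stress medians right of it.

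Among matrix genes, 2 collagens of basement membranes rose, and no fibrillar collagen passed the threshold. COL15A1, a collagen between muscle cells and capillaries, read 69.4, 29.9 and 37.6 CPM at 9 days and 110, 91.2 and 93.8 CPM at 21 days (1.10 ± 0.26, adjusted p = 0.0109). COL4A5, a chain of collagen IV, read 75.3, 32.4 and 65.8 CPM and then 200, 351 and 86.5 CPM (1.87 ± 0.47, adjusted p = 0.0146), with 21-day replicate 2 far above replicate 3. P4HA1, the proline hydroxylase of collagen folding, rose by 0.96 ± 0.30 (adjusted p = 0.0403). LOXL1, a crosslinking enzyme of elastin, fell by 1.07 ± 0.31 (adjusted p = 0.0288). These were the called members of 40 collagen and fibrous matrix genes (median 0.12). COL3A1 read 354, 197 and 376 CPM and then 771, 622 and 573 CPM, just short of the threshold (1.08 ± 0.37, adjusted p = 0.0576), and COL1A1 stood at -0.14 ± 0.36. LAMB1, a laminin chain, was the 1 of 23 proteoglycan and basement membrane genes that rose (0.61 ± 0.20, adjusted p = 0.0469). COL15A1 lost its call without 9-day replicate 2 (adjusted p = 0.0592), COL4A5 without that library or 21-day replicate 2 (0.0717 and 0.122), LOXL1 without 4 libraries, and P4HA1 and LAMB1 whichever of the 6 was left out. The 5 called genes had adjusted p values of 0.0896 (COL15A1) to 0.313 with RNA integrity as a covariate. Fibroblast markers, none of 13 called, summed to 872 to 1181 CPM at 9 days and 632.5 to 831 CPM at 21 days. Their median was 0.16 and 8 of the 13 had a positive fold change, so the sum and the typical member differed in direction. The part of fibroblasts in these values was not tested.

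Vessel genes gave single calls. PLVAP, which forms the diaphragms of capillary pores, read 99.0, 124 and 85.2 CPM at 9 days and 47.9, 28.4 and 27.3 CPM at 21 days (-1.57 ± 0.30, adjusted p = 0.00318). It kept its call without each library and with RNA integrity as a covariate (adjusted p = 0.0245). Of 18 endothelial markers PLVAP fell and PROX1 rose, the median was -0.06, and the summed level was 688 to 928 CPM at 9 days and 634 to 724 CPM at 21 days. CNN1, the smooth muscle calponin that immature heart muscle also carries, read 140, 74.1 and 49.4 CPM and then 31.9, 40.3 and 28.7 CPM (-1.39 ± 0.34, adjusted p = 0.0123). The pericyte gene HIGD1B fell by 1.25 ± 0.40 (adjusted p = 0.0439). They were the 2 of 15 smooth muscle and pericyte markers that fell, and none rose. CNN1 lost its call without 9-day replicate 1 or 21-day replicate 1 (adjusted p = 0.1235 and 0.05145) and HIGD1B without 5 of 6 libraries (up to 0.23), and neither was called with RNA integrity as a covariate (0.1 and 0.321).

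Macrophage markers had the highest list median, 0.70, with 2 of 22 that rose and 11 with no overlap in that direction. Over all genes tested, 6.69% rose and 3363 of 14537 had no overlap in that direction. MRC1, the mannose receptor of resident macrophages, read 0.45, 2.53 and 1.10 CPM at 9 days and 6.60, 3.59 and 4.32 CPM at 21 days (1.99 ± 0.44, adjusted p = 0.008). CX3CR1, the fractalkine receptor, lay at 0.749, 0 and 0.618 CPM and then 2.43, 1.97 and 1.46 CPM (1.89 ± 0.57, adjusted p = 0.0351). CSF1R, the growth factor receptor of the lineage, read 16.8, 20.3 and 13.4 CPM and then 40.3, 23.4 and 33.7 CPM without passing (0.96 ± 0.38, adjusted p = 0.0924). CD163 stood at 0.96 ± 0.43 and CD68 at 0.18 ± 0.52. The summed level of the list was 188 to 227 CPM at 9 days and 219 to 303 CPM at 21 days, which overlap. With RNA integrity as a covariate the median was 1.04, and neither MRC1 nor CX3CR1 was called (adjusted p = 0.0658 and 0.279). MRC1 lost its call without 9-day replicate 1 (adjusted p = 0.054) and CX3CR1 without 5 of 6 libraries (0.0559 to 0.114).

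Of 21 lymphocyte markers 3 rose, from low levels, and 1 fell. PTPRC, the pan-leukocyte antigen CD45, read 1.15, 0.533 and 1.24 CPM at 9 days and 5.79, 3.44 and 3.66 CPM at 21 days (2.06 ± 0.56, adjusted p = 0.0195). PRF1, perforin, rose by 2.69 ± 0.75 (adjusted p = 0.023). CD3D, a chain of the T cell receptor, had 0 counts in all 3 of the 9-day libraries and 13 in the 21-day libraries together. That made it at least 2.7-fold higher against a floor of 3 counts over the 9-day group, with counting error alone considered. CD79A, a chain of the B cell receptor, fell from 57.4, 58.9 and 47.5 to 33.0, 26.9 and 41.8 CPM (-0.69 ± 0.22, adjusted p = 0.0455). The list had a median of 0.37 that is the same with CD3D at its bound, and its summed level was 64.8 to 80.25 CPM and then 59.2 to 72.35 CPM. CD79A alone gave 47.5 to 58.9 CPM of that sum at 9 days and 26.9 to 41.8 CPM at 21 days, so the sum mostly reflects 1 gene at 9 days. The pan-leukocyte gene PTPRC read 0.533 to 1.24 CPM in the same 9-day libraries. Whether the CD79A counts come from B cells was not tested. None of 17 neutrophil, 15 antigen presentation and 10 complement genes was called. IFIT5 was the 1 of 37 interferon genes that rose (1.02 ± 0.32, adjusted p = 0.0381). CD3D lost its call without 9-day replicate 1 (adjusted p = 0.0826), PTPRC and PRF1 without 3 libraries each (0.06 to 0.0825), and CD79A and IFIT5 without 4 each (up to 0.202). The 5 stood at 0.108 to 0.431 with RNA integrity as a covariate.

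Iron handling genes held 2 that rose and 1 that fell, of 11, with a median of 0.33. IREB2, which senses cellular iron and holds back or protects mRNAs of iron genes, read 6.59, 12.1 and 8.65 CPM at 9 days and 26.6, 31.2 and 21.6 CPM at 21 days (1.56 ± 0.24, adjusted p = 0.000664). It kept its call without each library and with RNA integrity as a covariate (adjusted p = 0.0167). NCOA4, the receptor that sends ferritin to the lysosome, read 60.0, 78.7 and 89.7 CPM and then 160, 162 and 144 CPM (1.03 ± 0.30, adjusted p = 0.0299). SLC25A28, mitoferrin-2 of the inner mitochondrial membrane, fell from 55.0, 93.6 and 70.3 to 39.0, 33.97 and 39.95 CPM (-0.95 ± 0.28, adjusted p = 0.0314). NCOA4 and SLC25A28 lost their calls without 4 of 6 libraries each (up to 0.126 and 0.134) and with the covariate (0.405 and 0.341). Haemoglobin beta HBB, a measure of blood in the tissue, read 276, 93.7 and 89.0 CPM and then 98.1, 63.4 and 132 CPM, and none of 8 red cell genes was called.

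Growth factors showed 2 rises and 1 fall in 43 genes, against 6.69% and 3.75% of all genes tested. PDGFC, a ligand for fibroblast PDGF receptors, read 22.6, 18.4 and 24.4 CPM at 9 days and 52.8, 52.1 and 56.3 CPM at 21 days (1.30 ± 0.25, adjusted p = 0.00344). TGFB2 read 2.20, 2.93 and 2.06 CPM and then 3.28, 7.47 and 3.10 CPM (0.96 ± 0.31, adjusted p = 0.0463), with 21-day replicate 2 well above the others. BMP7, a bone morphogenetic protein, fell from 27.6, 15.7 and 8.44 to 2.79, 4.77 and 1.64 CPM (-2.50 ± 0.63, adjusted p = 0.014). PDGFC kept its call without each library and had an adjusted p of 0.0502 with RNA integrity as a covariate. BMP7 lost its call without 9-day replicate 1 or 21-day replicate 1 or 3 (0.0526 to 0.0832) and TGFB2 without 4 libraries, at 0.401 without 21-day replicate 2; with the covariate they stood at 0.14 and 0.452.

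Other lists held few calls. Among 22 chaperone genes DNAJB4 (1.38 ± 0.39, adjusted p = 0.0249), a muscle DNAJ protein, and HSPA4 (0.64 ± 0.19, adjusted p = 0.0287) rose. Among 22 immediate early genes FOSL2 rose from 16.04, 18.4 and 13.2 to 30.6, 31.9 and 32.3 CPM (1.00 ± 0.25, adjusted p = 0.0146), and NR4A3 by 1.92 ± 0.63 (adjusted p = 0.0483). INSIG2, which retains sterol sensors in the endoplasmic reticulum, rose with P4HA1 among 15 hypoxia genes (1.10 ± 0.30, adjusted p = 0.0216). FOSL2 lost its call without 21-day replicate 2 (0.055), and the other 4 without at least 3 libraries; with RNA integrity as a covariate the 5 stood at 0.122 to 0.325. None of 6 epicardial, 11 Schwann cell and 8 red blood cell genes was called. Atrial and conduction genes summed to 1404 to 1815 CPM and then 1497 to 1874 CPM, with KCNJ3 the 1 of 17 that rose. Adipocyte markers summed to 569 to 652 CPM and then 866 to 884 CPM, with LPL, which heart muscle also makes, the 1 of 10 that rose. Their median was -0.20, or -0.30 with PCK1, which had 0 counts in both groups, left out. The part of these cell types in the results was not tested.

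The largest rises among genes with a mean of at least 1 log2 CPM began with CDHR1, a cadherin-like membrane protein, from 0.649, 0.667 and 0.755 to 4.94, 13.3 and 8.64 CPM (3.69 ± 0.98, adjusted p = 0.0185). XIRP2 followed. SLC38A1, a glutamine transporter, read 1.10, 0.80 and 0.618 CPM at 9 days and 5.87, 10.5 and 4.04 CPM at 21 days (2.98 ± 0.57, adjusted p = 0.00318). AP1S2, a clathrin adaptor subunit, read 3.30, 1.73 and 3.50 CPM and then 11.9, 26.9 and 19.5 CPM (2.73 ± 0.57, adjusted p = 0.00533). The cytosolic nucleotidase NT5C1A, which makes adenosine from AMP in heart, read 0.999, 0.667 and 0.824 CPM and then 8.18, 4.62 and 3.10 CPM (2.63 ± 0.51, adjusted p = 0.00352). CLIC5, an intracellular chloride channel family protein, read 32.1, 38.7 and 15.7 CPM and then 143, 257 and 130 CPM (2.62 ± 0.57, adjusted p = 0.00672). LNPEP, the aminopeptidase that travels with the glucose transporter GLUT4, rose by 2.55 ± 0.50 (adjusted p = 0.00353). No library of 1 group overlapped the other in these genes, as the rule for naming them required. CTNNA3, the alpha-catenin of the intercalated disc, read 2.30, 3.87 and 2.95 CPM and then 15.9, 19.4 and 7.18 CPM (2.24 ± 0.48, adjusted p = 0.00587). The other 7 of the 15 were CERT1, LDAF1, CCDC186, IGSF9B, THSD4, AFF4 and FBXL17, with rises from 2.26 to 2.44. Of the 15, SLC38A1, AP1S2, NT5C1A, CLIC5, LNPEP, CCDC186, IGSF9B, FBXL17 and CTNNA3 kept their calls without each library, and AP1S2 alone also with RNA integrity as a covariate (adjusted p = 0.0308). CDHR1 lost its call without 9-day replicate 1 or 2 or 21-day replicate 2 (adjusted p = 0.0585 to 0.0762). With the covariate the adjusted p values of the 15 other than AP1S2 ran from 0.062 (SLC38A1) to 0.38 (LDAF1).

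The largest falls by the same rule began with SLC9A3, a sodium-proton exchanger, from 3.20, 13.3 and 10.1 to 0.364, 0.442 and 0.845 CPM (-3.99 ± 1.14, adjusted p = 0.0267). C1QTNF4, a secreted protein of the C1q and TNF family, read 6.34, 7.46 and 7.34 CPM at 9 days and 1.62, 0.541 and 1.46 CPM at 21 days (-2.53 ± 0.53, adjusted p = 0.00533). DHCR7, the last enzyme of cholesterol synthesis, read 7.74, 5.87 and 4.74 CPM and then 1.498, 1.38 and 1.596 CPM (-2.04 ± 0.38, adjusted p = 0.00268). GNMT, glycine N-methyltransferase, read 22.2, 19.5 and 22.5 CPM and then 3.69, 4.92 and 7.51 CPM (-2.0 ± 0.32, adjusted p = 0.00102). ARHGAP33 fell by 1.68 ± 0.29 (adjusted p = 0.00165), ENO2, the neuronal enolase, by 1.70 ± 0.43 (adjusted p = 0.015), and PPP1R1A, an inhibitor of protein phosphatase 1, by 1.79 ± 0.51 (adjusted p = 0.0273). LGI3 and MYO5B fell by 2.05 ± 0.52 and 1.77 ± 0.45 (adjusted p = 0.0145 and 0.0143). The other 6 of the 15, ND1, BMP7, TNNI1, MYOZ1, SUV39H1 and CDT1, are described above. C1QTNF4, DHCR7, GNMT and ARHGAP33 kept their calls without each library, and the last 3 also with RNA integrity as a covariate (adjusted p = 0.0206, 0.013 and 0.0216). SLC9A3 lost its call without 21-day replicate 1 or 2 or 9-day replicate 2 (0.0719 to 0.107). SLC9A3, C1QTNF4, ENO2, PPP1R1A, LGI3 and MYO5B were not called with the covariate (adjusted p from 0.0792 for MYO5B to 0.216 for PPP1R1A).

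Across 16 other fits of the same contrast, which took another scaling, test, filter, set of libraries or covariate or left out 1 library, 68 of the 1518 genes kept their call in every one. Of these 44 rose and 24 fell, and 60 have a symbol. A fit with RNA integrity and the length trend together is not among the 16; 61 of the 68 kept their call there too, and MBNL2, ITGAM and ACSS1 did not (adjusted p = 0.0555, 0.0581 and 0.0581). The 68 include AP1S2, ACTA1, IREB2, THRB, MBNL2, PLVAP, ARHGAP33, GNMT, DHCR7 and MYOZ1 from above. The following members were picked after their values were seen. SLC1A3, a glutamate transporter, read 9.79, 7.60 and 12.7 CPM at 9 days and 33.0, 33.5 and 29.7 CPM at 21 days (1.67 ± 0.24, adjusted p = 0.000422). IL6R, the interleukin 6 receptor, read 7.89, 8.13 and 4.26 CPM and then 23.1, 24.3 and 20.7 CPM (1.75 ± 0.27, adjusted p = 0.000866). ITGAM, the myeloid integrin CD11b, read 2.40, 0.533 and 1.85 CPM and then 7.98, 5.65 and 7.04 CPM (2.00 ± 0.44, adjusted p = 0.00726). The 3 genes rose in every 21-day library relative to every 9-day library. PKIA, the inhibitor of protein kinase A, read 107, 69.7 and 128 CPM and then 236, 309 and 260 CPM (1.40 ± 0.25, adjusted p = 0.00216). ACSS1, which activates acetate in mitochondria, rose by 1.54 ± 0.31 (adjusted p = 0.00432). PRICKLE2, a planar polarity protein, rose by 1.85 ± 0.31 (adjusted p = 0.00133).

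On the falling side of the same set, GSTA4, which detoxifies lipid peroxides, read 29.8, 19.9 and 25.7 CPM at 9 days and 8.34, 7.82 and 8.03 CPM at 21 days (-1.64 ± 0.24, adjusted p = 0.000422). LPCAT3, which places polyunsaturated acyl chains into phospholipids, read 88.8, 48.5 and 77.3 CPM and then 26.0, 20.8 and 25.4 CPM (-1.57 ± 0.22, adjusted p = 0.000422). RBM3, a cold-induced RNA-binding protein, read 117, 222 and 192 CPM and then 66.5, 75.2 and 65.4 CPM (-1.36 ± 0.28, adjusted p = 0.00461). All 3 were lower in every 21-day library than in every 9-day library. REM2, a small GTPase that restrains calcium channels, fell by 3.07 ± 0.54 (adjusted p = 0.00165).

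Sham hearts taken 1 day after surgery, at 15 days (Old Early Sham) and 3 days of age (Young Early Sham), share no library with the late comparison. There 4391 genes (30.2% of 14537) were called, 2476 higher and 1915 lower at 15 days, with RNA integrity of 7.1 to 7.6 against 6.4 to 6.9 and library batch 2 against batch 1. Of the 973 genes that rose in late hearts, 609 (62.6%, or 24.6% of the 2476) rose in early hearts, against 2476 of all 14537 tested. Of the 545 that fell, 264 (48.4%, or 13.8% of the 1915) fell there, against 1915 of all 14537. A further 5 were called in opposite directions, chosen here for that: ACTA1, ADRA1B, DNAJC22, EPN2 and 1 gene without a symbol. TNNI1 stood at -1.43 between 15 and 3 days (adjusted p = 0.0528), THRB rose by 0.80 (adjusted p = 0.0224) and PDE3A by 2.69 (adjusted p = 0.00095). PLVAP fell by 1.49 there (adjusted p = 0.00203).

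The difference between the late and the early age contrast was called for 2 genes, 0.0138% of those tested, and 1291 had an unadjusted p under 0.05. ACTA1 read 13990, 15680 and 5382 CPM at 3 days, 3475, 2347 and 3245 at 9 days, 3781, 6588 and 5327 at 15 days and 8008, 8612 and 11490 at 21 days. It was lower at 15 than at 3 days (-1.16 ± 0.34) and higher at 21 than at 9 days, a difference of 2.79 ± 0.49 (adjusted p = 0.0245). DNAJC22, a membrane DNAJ protein, read at most 0.0688 CPM at 3 days, 1.80, 2.13 and 0.686 CPM at 9 days, 0.106, 0.364 and 0.535 CPM at 15 days and at most 0.121 CPM at 21 days (-6.69 ± 1.13, adjusted p = 0.0245). No gene was called in a fit of the 12 sham libraries alone (2179 with an unadjusted p under 0.05) or with sex as a term (902), and DESeq2 called 62. Both calls were kept with RNA integrity as a covariate. Leaving out 1 of the 12 libraries gave 0 to 12 genes: 0 without 3-day replicate 1, 9-day replicate 2, 15-day replicate 3 or 21-day replicate 3.

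Within library batch 2 the only age comparison was of the 3 hearts at 15 days with 9-day replicates 1 and 3, which the main comparison also uses, and these hearts differ in the time since surgery too. There 53 of 13120 genes (0.404%) were called, 32 higher and 21 lower, and 3659 had an unadjusted p under 0.05. XIRP2 rose by 4.21 (adjusted p = 0.0456) against 3.42 in the main comparison. GNMT fell by 3.07 (adjusted p = 0.0335) against 2.0, and C1QTNF4 by 2.89 (adjusted p = 0.0458) against 2.53. PDE1C rose by 2.06 (adjusted p = 0.0493) and P4HA1 by 1.68 (adjusted p = 0.0335), against 1.30 and 0.96. TNNI1 stood at -1.13 (adjusted p = 0.0753), THRB at 0.93 (0.0645), PDE3A at 1.11 (0.147), PPARGC1A at 0.43 (0.29) and CPT1A at -0.24 (0.585). In this batch the mitochondrially encoded list had a median of -0.35 and the cytosolic ribosomal list one of -0.42, against -0.97 and -0.52 in the main comparison. The count was 426 without 9-day replicate 1 and 3229 without 9-day replicate 3, fits in which 1 library stands for 9 days, is assumed to vary like the 15-day hearts and gives no check of its own spread. It was 0 without any 1 of the 3 hearts at 15 days (2224 to 2930 with an unadjusted p under 0.05).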

How the data were processed

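Per the labels' protocols, tissue was kept in RNAlater and polyadenylated RNA was made into stranded libraries, read as paired ends of 76 bases. The authors deposited raw read counts per gene; per the submitters' processing notes the tools were bcl2fastq 2.19.0.316, Trimmomatic 0.36, STAR and featureCounts of Subread 1.5.1. Genome build, annotation and strand setting are not given in the sources used here, so no coordinates are printed.

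Genes were kept with filterByExpr (minimum count 10, minimum total 15). The 12 groups of 3 (36 libraries) were fitted together with edgeR 4.0.16 (TMM scaling, quasi-likelihood test, 24 residual degrees of freedom) in R 4.3.3, with Benjamini-Hochberg adjustment over all genes tested and a threshold of 0.05. Alternatives used DESeq2 1.42.0 and limma 3.58.1. The labels name a separate pig for each sham library. The other libraries are infarct zone (IZ) and border zone (BZ) tissue, and IZ and BZ libraries share pigs. The main fit had no term for the animal. With animal as a random effect in limma-voom, 1365 genes were called (940 higher, 425 lower), 1214 of them among the 1518. Replicate numbers follow the order of deposition.

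The members and the 47 gene lists (1117 symbols, 957 in the table, 898 tested) were chosen with earlier results of these data known, so list counts are a description. Symbols came from a reference list of gene names matched to the deposited gene IDs, and 14857 of 25880 genes had one. A gene whose symbol was not found may still be counted under an ID alone. Named genes were the 15 largest rises and 15 largest falls among called genes with a symbol, a mean of at least 1 log2 CPM and no overlap, up to 4 called members of each list with a mean of at least 0 log2 CPM, and a panel of 32 (23 tested). Of these 119 genes 99 were called, and 27 kept their call without each of the 6 libraries. Further genes in the text were picked after their values were seen. Tested on simulated data for this comparison (14229 genes), the fit recovered 40.4% of 99 genes changed by 1 and 77.8% of 99 changed by 2 on the log2 scale, and called 0.0214% of unchanged genes. Apart from the changed genes, each simulated gene had 1 mean for all libraries, with no effect of batch, RNA integrity or exon length. The 0.0214% is therefore no measure of false calls in the deposited data, where these differ between the groups. Exon length is that of the deposited table. Some named genes are not reported here.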

Additional observations from a re-analysis of the deposited data

Results flagged for a closer look

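In 2 genes the age difference itself differed between hearts taken 1 week and 1 day after surgery, by a test of that difference. For ACTA1 the late difference exceeded the early one by 2.79 on the log2 scale, and for DNAJC22 it was below it, at -6.69 (adjusted p = 0.0245 for both, edgeR quasi-likelihood test). Both calls were kept with RNA integrity as a covariate. Neither was kept in a fit of the 12 sham libraries alone or with sex as a term, where 0 genes were called. Leaving out 1 library gave 0 to 12 genes. DNAJC22 read at most 0.0688 CPM at 3 days and 0.121 CPM at 21 days, so the size of its difference is uncertain. The sham groups also differ in library batch, whose part was not tested.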

How the results depend on the processing

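No paired analysis was possible because replicate numbers only follow the order of deposition and each sham library came from a different pig. For the comparison of 21 with 9 days, 1518 genes became 3619 with the 12 sham libraries alone, 108 with RNA integrity as a covariate, 2692 with sex as a term, 865 with a minimum absolute log2 fold change of 1, and 118 with RNA integrity and the exon length trend removed together, an alternative added after seeing the data; leaving out 1 library gave 355 to 1464. For the late minus early difference, 2 genes became 62 with DESeq2, 1 with limma-voom, 0 with 12 libraries or sex as a term, 4 without mitochondrial genes, 7 with the length trend removed and 6 with RNA integrity and length, and 0 to 12 without 1 library. Within batch 2, 53 became 200 with all 36 libraries, 1808 with DESeq2 and 0 to 3229 without 1 library, the highest with 1 library at 9 days. The cause was not tested.

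Of 47 list medians 23 kept their sign in every fit; 12 changed sign with RNA integrity as a covariate, 13 with the length trend removed too, 5 with the length trend alone removed and 16 in at least 1 fit without 1 library. The values below are for medians that exceeded the spread between libraries. With RNA integrity as a covariate they were -0.0124 for adult sarcomere, -0.0726 for transcription factor, 0.0421 for nuclear oxidative phosphorylation, -0.2196 for fetal growth, 0.2975 for neutrophil and 0.0932 for adipocyte genes. With the length trend removed too they were -0.0726 for transcription factor, 0.0424 for oxidative phosphorylation, -0.3272 for fetal growth, -0.049 for collagen, 0.3871 for neutrophil, 0.1509 for adipocyte and 0.0272 for mitochondrial ribosomal genes. With the length trend alone removed they were -0.0181 for adult sarcomere and -0.0142 for fetal growth genes. Without 1 library such medians ran from -0.2214 to 0.045 for lipid droplet, from -0.2103 to 0.3603 for Schwann cell and from -0.0314 to 0.2773 for fetal growth genes. Of the called genes named in the text none changed sign in these fits; genes named as not called did, among them ATP2A2, TOP2A, CDK1, LDHA and MYH6.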
